A study of Mus musculus with 2 samples.

Results

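The Snail, Twist and Zeb factors are DNA-binding proteins of mesenchymal cells, and they were examined here in 2 cultures of mouse dermis. The 8 genes were Snai1, Snai2, Snai3, Twist1, Twist2, Zeb1, Zeb2 and Tcf4, taken by gene symbol from the 17431 genes with a read in either library. All 8 had reads in both libraries, and 7 of them passed an expression filter of at least 1 RPKM (reads scaled by gene length and by the total counted in the library) and at least 20 reads in either library. Snai3, with 1 read in each library, did not pass. The symbol Tcf4 denotes the E protein gene with gene ID 21413, not the Wnt effector gene that is sometimes given the same name.

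Poly(A) RNA was sequenced from skin-derived precursors (SKPs) and from fibroblasts, both from the dermis of BALB/c mice, with 1 library for each. The SKP culture came from mice at postnatal day 4 and was grown in DMEM/F12 with 40 ng/ml FGF2, 20 ng/ml EGF and 2% B27 supplement. The fibroblast culture came from mice at postnatal day 3 and was kept in DMEM supplemented with 10% fetal bovine serum. The labels set the transcriptomes of these cell types against each other, and cell type, medium and age of the mice cannot be told apart. The labels do not say how many mice were pooled. The SKP library had 22981183 reads of 49 bases, of which 85.13% mapped, and the fibroblast library 23374716 reads, of which 81.65% mapped. A single read over 1 kb of gene length equals 0.0528 RPKM for SKPs and 0.0543 RPKM for fibroblasts. There were no replicates, so each difference is between 2 libraries and has no replicate check. Ranges in parentheses are 95% exact intervals for the counting of reads and hold no variation between cultures or mice.

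Snail proteins are zinc finger repressors that bind E-boxes in the promoters of epithelial genes such as E-cadherin and recruit histone-modifying corepressors through a short amino-terminal tail. Zeb proteins bind the same E-boxes through clusters of zinc fingers and recruit the CtBP corepressors. Twist proteins are basic helix-loop-helix factors that pair with the E proteins encoded by Tcf3, Tcf4 and Tcf12, and the Id proteins, which lack a DNA-binding region, compete for the same partners. In the embryo these genes act in neural crest migration and in the making of dermal mesenchyme, and Snai2 and Twist1 are widely used as markers of SKPs.

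The 7 expressed regulators lay between 13.8 and 155 RPKM in the libraries, and only Tcf4 was at least 2-fold apart. Tcf4, Zeb1, Snai1 and Zeb2 had more reads per length in the SKP library, and Snai2, Twist2 and Twist1 had more in the fibroblast library. By the rule used here, an expressed gene is called higher or lower when its ratio is at least 2-fold and its interval excludes equality. Of the 7 genes, 1 was higher in the SKP library and 0 were lower, where 12.1% of all 12053 expressed genes were higher and 6.41% were lower. At 1.5-fold, Tcf4 and Zeb1 were higher and Snai2 was lower, against 18.7% and 14.2% of expressed genes, so with 7 genes these shares are no result about the group. As log2 of SKP over fibroblast RPKM, the median was 0.19 for the 7 genes and -0.01 for all expressed genes, and the median size of the log2 difference was 0.52 against 0.37.

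**Figure D1:**
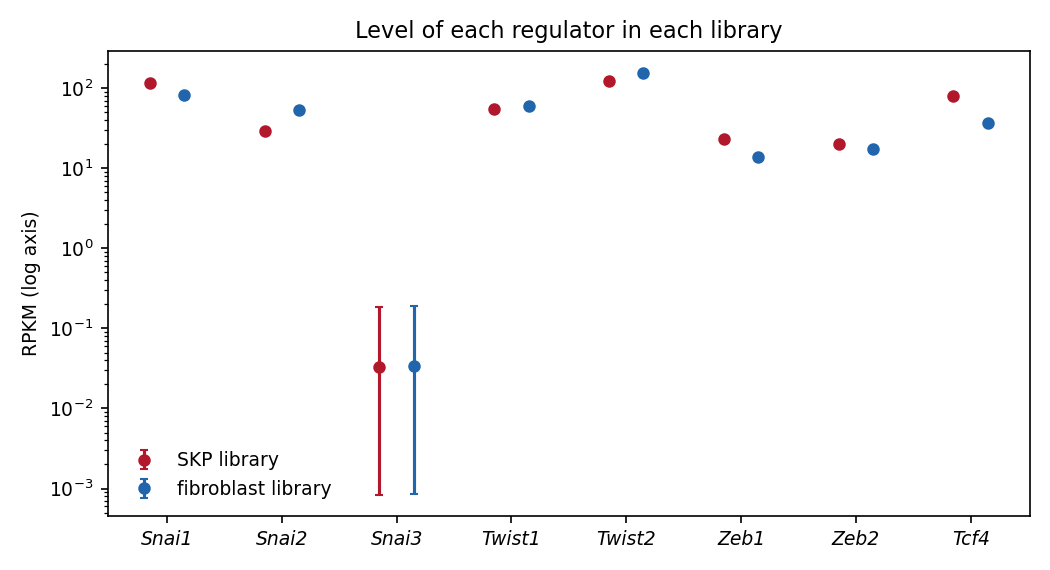
Level of each of the 8 regulators in the SKP library (red) and the fibroblast library (blue), as RPKM on a log axis with 95% exact counting intervals from the reads, which for 7 genes are narrower than the point. The 7 expressed genes lie between 13.8 and 155 RPKM, and Snai3 lies at 0.0332 and 0.0342 RPKM, each from 1 read.

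Snai1 and Snai2 share the start of their coding sequence, which encodes the repressor tail named SNAG. The first 60 coding bases are shown because they show where these genes, which differed in opposite directions, are alike, with bases shared by both in capitals (GENCODE M21 transcripts, GRCm38, on chromosomes 2 and 16).
Snai1: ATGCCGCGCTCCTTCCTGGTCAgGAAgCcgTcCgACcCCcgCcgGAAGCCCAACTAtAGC
Snai2: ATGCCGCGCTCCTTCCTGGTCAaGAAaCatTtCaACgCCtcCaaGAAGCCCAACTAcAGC
The sequences share 48 of 60 bases (80.0%), including an unbroken run from the start codon. Over the whole transcripts, no window of 49 bases, the length of a read, from any of the 3 Snail genes came within 2 mismatches of another Snail transcript.

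Snai1 represses E-cadherin and acts in mesoderm at gastrulation. It had 3573 reads and 117 RPKM in the SKP library, against 2419 reads and 81.5 RPKM in the fibroblast library. This was a 1.43-fold difference in favour of SKPs (1.36 to 1.51). Snai2, the Slug gene of the neural crest and of skin and pigment cell progenitors, went the other way, with 1145 reads and 29.0 RPKM in the SKP library against 2066 reads and 53.9 RPKM in the fibroblast library. Fibroblasts were ahead by 1.86-fold (1.73 to 2.00), and the log2 difference was larger than that of 78.9% of expressed genes. Snai3, the remaining family member, had 0.0332 RPKM in the SKP library and 0.0342 RPKM in the fibroblast library. At 1 read each no difference of Snai3 was detectable at this depth.

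The balance within the Snail family differed more than its sum. The family summed to 146 RPKM in the SKP library and 135 RPKM in the fibroblast library. Snai1 made up 80.1% of that sum (79.0 to 81.2) in the SKP library and 60.2% (58.8 to 61.6) in the fibroblast library. Per length, Snai1 was 4.03 times as abundant as Snai2 in the SKP library (3.77 to 4.31) and 1.51 times as abundant in the fibroblast library (1.43 to 1.61). Reads covered 97.2% of the Snai1 length in the SKP library and 94.3% in the fibroblast library, and 93.1% and 95.1% of the Snai2 length, so reads of both genes were spread over nearly the whole length.

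**Figure D2:**
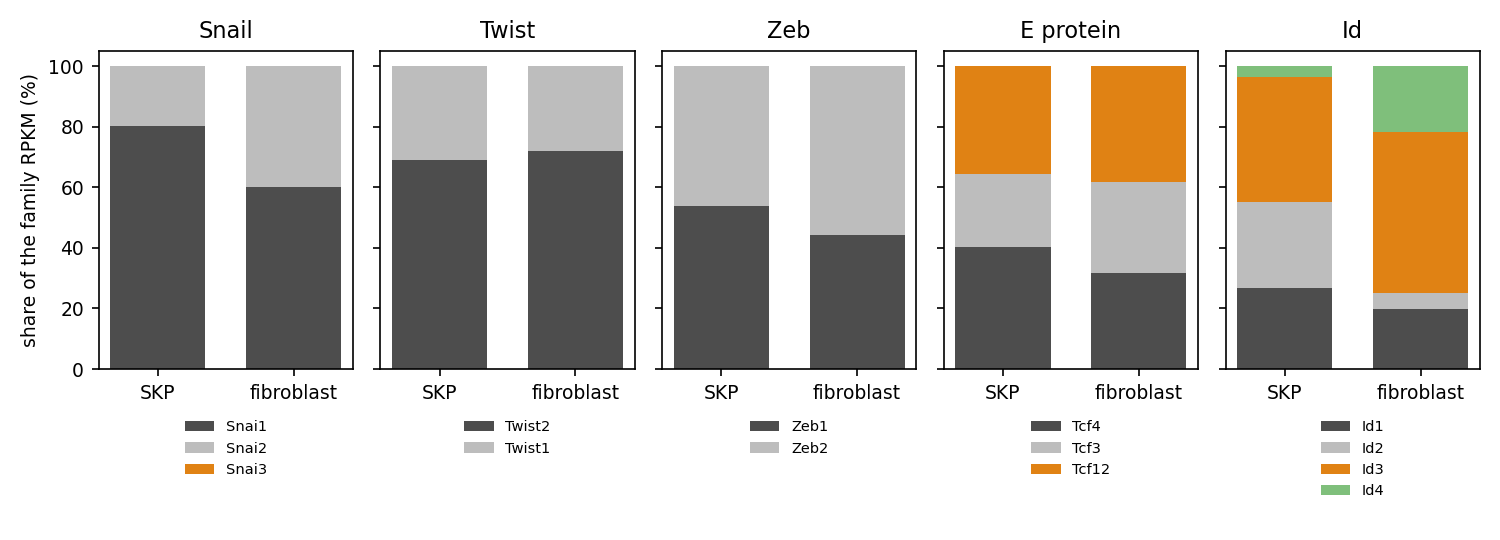
Share of each family's summed RPKM held by each gene, in percent, in the SKP library and the fibroblast library. Snai1 holds 80.1% of the Snail sum in the SKP library and 60.2% in the fibroblast library, Zeb1 holds 54.0% and 44.1% of the Zeb sum, and Id4 holds 3.45% and 21.7% of the Id sum.

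Twist1 and Twist2 encode near-identical helix-loop-helix regions. The 200 coding bases over that region are shown because they decide whether reads of the genes can be told apart, and bases that differ from the paralog are in capitals (GENCODE M21 transcripts, GRCm38, on chromosomes 12 and 1, coding bases 343 to 542 of Twist1 and 205 to 404 of Twist2).
Twist1: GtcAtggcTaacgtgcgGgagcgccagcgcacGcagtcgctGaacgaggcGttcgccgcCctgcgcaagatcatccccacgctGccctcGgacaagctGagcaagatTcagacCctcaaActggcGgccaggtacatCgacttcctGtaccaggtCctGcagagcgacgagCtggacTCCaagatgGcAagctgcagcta
Twist2: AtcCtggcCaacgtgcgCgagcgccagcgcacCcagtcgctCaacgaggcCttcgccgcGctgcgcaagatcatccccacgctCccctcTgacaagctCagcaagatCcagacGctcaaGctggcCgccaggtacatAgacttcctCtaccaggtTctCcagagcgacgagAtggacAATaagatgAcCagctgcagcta
In this stretch 175 of 200 bases (87.5%) were identical, but the differences are spread so that the longest identical coding run is 23 bases. No window of 49 bases of either transcript came within 2 mismatches of the other. The same was true of Zeb1 against Zeb2 and of Tcf4 against Tcf3 and Tcf12 in the GENCODE M21 models, which need not be the models the reads were counted on. Annotated transcripts on the opposite strand overlap Snai3, Twist2, Zeb1 and Zeb2 (for Zeb2, the antisense transcript Zeb2os among others). Without the strand, their reads cannot be told apart from those of the named gene where they overlap. Other annotated transcripts overlap Twist2, Zeb1, Zeb2 and Tcf4 on the same strand.

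Twist2, also known as Dermo1 and named for its expression in dermis, had the highest RPKM of the 8 genes in both libraries, though in the SKP library it was not apart from Snai1 beyond counting error. It had 3026 reads and 122 RPKM in the SKP library, against 3752 reads and 155 RPKM in the fibroblast library. That placed it at rank 504 of 16727 genes with a read in the SKP library and at rank 381 of 16282 in the fibroblast library. The difference was 1.28-fold in favour of fibroblasts (1.22 to 1.34). Twist1, which acts in cranial mesenchyme and in the sutures of the skull, had 1736 reads and 55.0 RPKM in the SKP library and 1858 reads and 60.6 RPKM in the fibroblast library, a 1.10-fold difference in favour of fibroblasts (1.03 to 1.18).

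The Twist genes lay close together in the cultures, both slightly lower in the SKP library and neither near the 2-fold limit. Twist1 had the smallest difference of the 7 expressed genes, and 21.4% of expressed genes differed by less. Per length Twist2 was 2.21 times as abundant as Twist1 in the SKP library (2.08 to 2.35) and 2.56 times in the fibroblast library (2.42 to 2.71). Their summed level was 177 RPKM in the SKP library and 216 RPKM in the fibroblast library. The gene lengths behind these levels were 1312 bases for Twist2 and 1665 bases for Twist1.

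Zeb1 and Zeb2 encode large zinc finger and homeodomain proteins that repress epithelial genes, and Zeb2 is also used by neural crest, glia and several blood cell types. Zeb1 had 2582 reads and 23.5 RPKM in the SKP library, against 1476 reads and 13.8 RPKM in the fibroblast library, and was 1.70-fold higher in SKPs (1.59 to 1.81). Zeb2 had 3456 reads and 20.0 RPKM in the SKP library, against 2937 reads and 17.5 RPKM in the fibroblast library, and differed by 1.14-fold (1.09 to 1.20). Both genes were less abundant per length than the other expressed regulators. Per length, their order differed between the libraries: Zeb1 stood at 1.17 times the level of Zeb2 in the SKP library (1.11 to 1.23) and at 0.789 times its level in the fibroblast library (0.740 to 0.840). This order rests on the gene lengths used, since by reads alone Zeb1 was below Zeb2 in both libraries, with 42.8% of the Zeb reads in the SKP library and 33.4% in the fibroblast library.

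Tcf4 encodes an E protein, a partner of Twist and of lineage-specific helix-loop-helix factors. It had 11259 reads and 79.6 RPKM in the SKP library, against 5129 reads and 37.3 RPKM in the fibroblast library. At 2.13-fold (2.06 to 2.20) it was the member furthest apart, and 83.4% of expressed genes had a smaller log2 difference. In the order of levels it was the third of the 8 genes in the SKP library and the fifth in the fibroblast library.

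**Figure D3:**
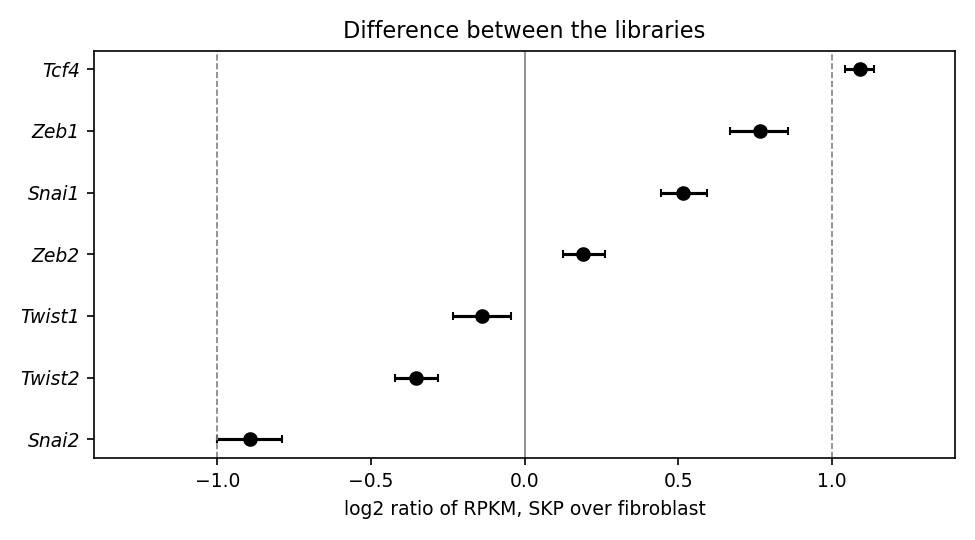
Log2 ratio of RPKM, SKP over fibroblast, for the 7 expressed regulators, with 95% exact counting intervals as horizontal bars. Dashed lines mark 2-fold in either direction, and only Tcf4, at 1.09, lies outside them.

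From high to low, the order in the SKP library was Twist2, Snai1, Tcf4, Twist1, Snai2, Zeb1, Zeb2 and Snai3. In the fibroblast library it was Twist2, Snai1, Twist1, Snai2, Tcf4, Zeb2, Zeb1 and Snai3. Neighbours in these orders were apart by more than their counting error, except Twist2 and Snai1 in the SKP library, and with 1 library each their spread between cultures is not known. The authors' deposited table gives log2 ratios of fibroblast over SKP, the opposite direction, of -1.09 for Tcf4, -0.76 for Zeb1, -0.52 for Snai1, -0.19 for Zeb2, 0.14 for Twist1, 0.35 for Twist2 and 0.89 for Snai2. Of the members, only Tcf4 is in the authors' deposited table of filtered genes, in which the smallest log2 ratio is 1.00 in size.

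For each expressed member, the gene outside the group with the most similar levels was taken by the Euclidean distance of log2 RPKM over the 2 libraries, among 12002 genes with at least 20 reads in both. These genes were Jak1 for Snai1, Eif1a for Snai2, Rrp1 for Twist1, Mfge8 for Twist2, St3gal4 for Zeb1, Pigu for Zeb2 and Emilin1 for Tcf4. The distances ran from 0.0031 for Rrp1 to 0.0740 for Emilin1 on the log2 scale. With only 2 libraries, such a match says no more than that the levels were close.

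As sums, the E protein genes were more abundant in the SKP library and the Id genes in the fibroblast library. All 3 E protein genes had more reads per length in the SKP library, but only Tcf4 reached 2-fold. Tcf12 had 70.0 RPKM in the SKP library and 45.3 RPKM in the fibroblast library (1.55-fold, 1.49 to 1.61). Tcf3 had 47.8 RPKM in the SKP library and 35.7 RPKM in the fibroblast library (1.34-fold, 1.27 to 1.42). The 3 genes summed to 197 RPKM in the SKP library and 118 RPKM in the fibroblast library. Tcf4 made up 40.3% of that sum in the SKP library (39.7 to 41.0) and 31.6% in the fibroblast library (30.8 to 32.4).

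Among the 4 Id genes, which encode the inhibitors of E proteins, 1 was higher and 2 were lower in the SKP library. The shares over all expressed genes were 12.1% higher and 6.41% lower, and with 4 genes the counts are no result about the group. Id4, with 97 reads and 3.08 RPKM in the SKP library against 1128 reads and 36.9 RPKM in the fibroblast library, had a log2 ratio of -3.58 and was the furthest apart of the E protein and Id genes. Id3 stood at 36.9 RPKM in the SKP library and 90.5 RPKM in the fibroblast library, 2.45-fold higher in fibroblasts (2.24 to 2.69). Id2 went the other way, at 25.6 RPKM in the SKP library and 9.40 RPKM in the fibroblast library. Id1 had 23.8 RPKM in the SKP library and 33.5 RPKM in the fibroblast library, under 2-fold apart. The Id sum was 89.4 RPKM in the SKP library and 170.3 RPKM in the fibroblast library. The summed E protein level was 2.21 times the summed Id level in the SKP library and 0.694 times it in the fibroblast library.

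Other relatives of the Snail and Twist genes were scarce. Of 9 Scratch and Twist-family genes, 5 had no read in either library, namely Scrt2, Hand1, Tcf15, Tcf21 and Ferd3l. Only Scx, the scleraxis gene of tendon, was expressed, with 115 reads and 5.34 RPKM in the SKP library against 37 reads and 1.77 RPKM in the fibroblast library, a 3.02-fold difference (2.07 to 4.50). Hand2 had 10 reads in the SKP library and 18 in the fibroblast library, Scrt1 had 4 and 7, and Msc had 2 and 0.

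Corepressors that act with Snail and Zeb proteins were all expressed in the cultures. Of the 19 genes 18 were under 2-fold apart, with 0 higher and 1 lower in the SKP library, where 12.1% of all expressed genes were higher and 6.41% lower. Kdm1a, which encodes the demethylase bound by the SNAG tail, had 28.7 RPKM in the SKP library and 30.0 RPKM in the fibroblast library. Ctbp1, the Zeb corepressor, had 74.8 RPKM in the SKP library and 74.9 RPKM in the fibroblast library, and the deacetylase gene Hdac1 had 63.8 and 65.4 RPKM. The exception was Jub, which encodes the LIM protein Ajuba, a Snail-binding adaptor. It had 135 reads and 2.03 RPKM in the SKP library against 892 reads and 13.8 RPKM in the fibroblast library, 6.80-fold higher in fibroblasts (5.67 to 8.21). The list median of the log2 ratio was -0.00, against -0.01 for all expressed genes.

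Genes listed for the export, decay or stability of Snail proteins, mainly those for kinases and ubiquitin ligases, were all expressed as well. Of these 16 genes 0 were higher and 2 were lower in the SKP library, and 14 were neither, while 9826 of all 12053 expressed genes were neither. A count this near the background is no result about the list. The 2 were Prkd1, a protein kinase D gene (1.73 RPKM in the SKP library against 9.15 in the fibroblast library), and Lats2, a Hippo pathway kinase gene (13.3 RPKM against 34.1). Gsk3b, whose kinase phosphorylates Snail and so marks it for degradation, had 17.1 RPKM in the SKP library and 19.9 RPKM in the fibroblast library. The most abundant of the list was Trp53, at 109.9 RPKM in the SKP library and 104 RPKM in the fibroblast library. The list median was -0.04.

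TGF-beta is a main inducer of the Snail and Zeb genes in other cell systems. Its inputs on the list comprised 16 expressed genes. In the SKP library 4 of these were higher and 2 were lower, while 10 stayed under 2-fold, against 12.1% higher and 6.41% lower over all expressed genes. Their median log2 ratio was 0.18. Hmga2, a chromatin protein that activates Snail and Twist genes downstream of TGF-beta, was the furthest apart, at 202 RPKM in the SKP library against 49.5 RPKM in the fibroblast library (4.09-fold, 3.95 to 4.24). The transducer gene Smad3 stood at 40.2 RPKM in the SKP library and 10.5 RPKM in the fibroblast library (3.82-fold, 3.56 to 4.10). The receptor gene Tgfbr1 stood at 28.7 against 9.35 RPKM, and the ligand gene Tgfb1 at 174 against 75.6 RPKM, with the SKP library given first. Lower in the SKP library were the ligand gene Tgfb3, at 15.4 RPKM against 58.4 RPKM in fibroblasts, and the inhibitory Smad6, at 3.98 RPKM against 10.5 RPKM.

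Targets on the epithelial side were at low levels in both libraries. Of 44 genes on the list 1 had no read, and only 17 passed the expression filter. The median level of the 43 genes with reads was 0.379 RPKM in the SKP library and 0.203 RPKM in the fibroblast library. Cdh1, the E-cadherin gene and the classical target of Snail and Zeb, was below the filter with 48 reads and 0.574 RPKM in the SKP library against 10 reads and 0.123 RPKM in the fibroblast library. It is named here because of that role and was chosen after its values were seen. Summed, the epithelial list stood at 59.6 RPKM in the SKP library and 75.3 RPKM in the fibroblast library, the opposite direction to its median. The sum of the 8 regulators was 446 RPKM in the SKP library and 420.0 RPKM in the fibroblast library.

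The 17 epithelial genes that passed held 5 that were higher and 5 that were lower in SKPs, and another 7 stayed under 2-fold. The shares over all expressed genes were 12.1% higher and 6.41% lower. The median log2 ratio of the 17 genes was 0.11. Only 8 of them reached 1 RPKM in both libraries, while 5 did so in the SKP library alone and 4 in the fibroblast library alone, so the filter itself favoured a difference for those 9 genes. The desmosome gene Dsp stood at 2.40 RPKM in the SKP library against 0.232 RPKM in the fibroblast library (10.3-fold, 7.49 to 14.6). The tight junction gene Cldn4 stood at 1.91 RPKM in the SKP library and 0.238 RPKM in the fibroblast library (8.01-fold, 3.84 to 19.3). Lower in the SKP library were Cdh3, the P-cadherin gene, at 0.372 RPKM against 10.7 RPKM in fibroblasts (28.8-fold, 19.7 to 43.6), and the plakophilin gene Pkp2, with 12 reads against 346 (29.7-fold, 16.8 to 58.0). Tjp1 and Jup, junction genes that many non-epithelial cells use, were the most abundant of the list. Tjp1 had 2339 reads in the SKP library and 2078 in the fibroblast library (1.09-fold, 1.03 to 1.16), and Jup had 9.78 RPKM in the SKP library and 18.8 RPKM in the fibroblast library.

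Keratinocyte markers moved with the epithelial genes that were higher in the SKP library. Each of the 10 markers with reads, out of 11 listed, had more reads per length there, and 8 reached 1 RPKM in the SKP library against 1 in the fibroblast library. Their summed level was 44.0 RPKM in the SKP library and 4.48 RPKM in the fibroblast library. Krt15 had no read in either library, and Ivl and Krt1 had none in the fibroblast library. The part of such cells in the epithelial values was not tested, and in bulk RNA fewer cells of a type and less RNA per cell cannot be told apart.

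**Figure D4:**
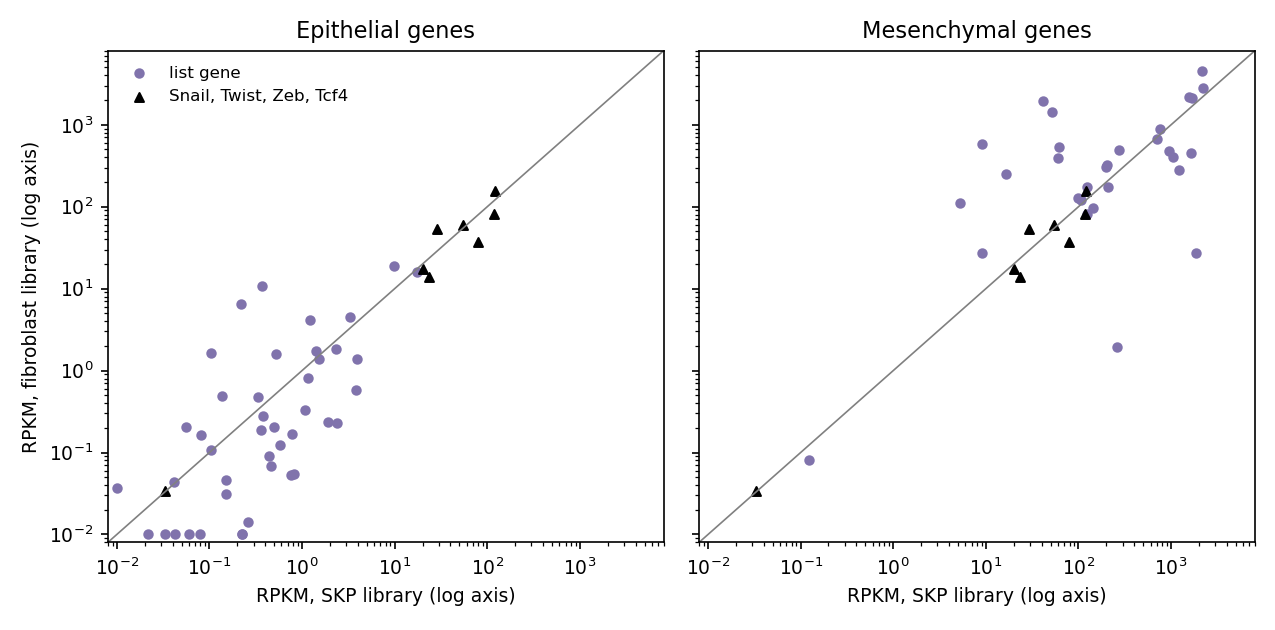
RPKM in the SKP library (horizontal) and in the fibroblast library (vertical) on log axes for the epithelial list and the mesenchymal list (purple points), with the 8 regulators as black triangles and the line of equality in grey. Values under 0.01 RPKM, including 0, are drawn at 0.01; the epithelial genes reach no more than 17.5 RPKM in the SKP library and 18.8 RPKM in the fibroblast library, while 29 of 30 mesenchymal genes lie above 1 RPKM in both.

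The E-box bound by Snail and Zeb proteins was searched in the 250 bases before the annotated gene start (RefSeq, GRCm38.p6) as CAGGTG or its reverse complement CACCTG, which together cover both strands and are a subset of the general E-box CANNTG. Of 27025 genes with such a sequence, 19.4% held at least 1 match. On the epithelial list 27 genes had a sequence and 16 of them (59.3%) held a match. On the mesenchymal list 17 genes had a sequence and 0 of them held a match. The keratinocyte and adipocyte markers each held a match in 3 of 7 genes (42.9%). The epithelial list was compiled from genes named as targets of these repressors, so its share is not independent of the motif. Any CANNTG was present in 66.2% of all promoter windows. A match is a run of letters, and binding was not measured here.

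**Figure D5:**
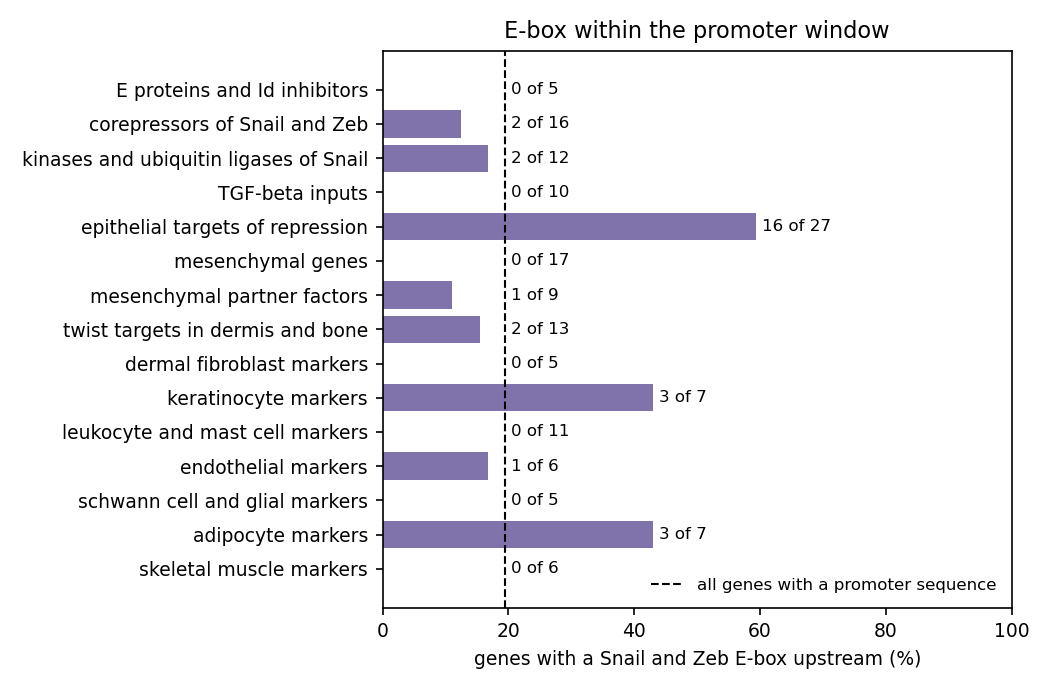
Share of genes, in percent, with at least 1 CAGGTG or CACCTG in the 250 bases before the gene start, for each list with at least 5 such sequences, with counts beside the bars. The dashed line is the 19.4% of all genes with a promoter sequence, the epithelial list stands at 59.3%, and the keratinocyte and adipocyte markers stand at 42.9%.

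The upstream sequences of 4 epithelial genes with matches are shown, together with that of Snai1, the only one of the regulators searched that held a match, with the matches in capitals. The 4 were chosen after their matches were seen, Ap1m2 and Spint2 for several matches and Epcam and Cldn4 as surface and junction genes.
Snai1, chr2:167537945-167538194, plus strand: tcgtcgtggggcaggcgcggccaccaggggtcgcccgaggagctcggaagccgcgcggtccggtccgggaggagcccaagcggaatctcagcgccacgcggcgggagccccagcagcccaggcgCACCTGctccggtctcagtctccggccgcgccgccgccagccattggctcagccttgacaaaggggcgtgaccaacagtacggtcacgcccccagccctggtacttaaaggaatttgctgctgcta
Epcam, chr17:87635729-87635978, plus strand: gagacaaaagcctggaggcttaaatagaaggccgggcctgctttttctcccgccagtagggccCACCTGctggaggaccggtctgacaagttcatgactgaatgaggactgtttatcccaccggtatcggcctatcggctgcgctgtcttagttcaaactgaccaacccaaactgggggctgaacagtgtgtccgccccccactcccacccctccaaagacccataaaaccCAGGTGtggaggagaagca
Cldn4, chr5:134946935-134947184, minus strand: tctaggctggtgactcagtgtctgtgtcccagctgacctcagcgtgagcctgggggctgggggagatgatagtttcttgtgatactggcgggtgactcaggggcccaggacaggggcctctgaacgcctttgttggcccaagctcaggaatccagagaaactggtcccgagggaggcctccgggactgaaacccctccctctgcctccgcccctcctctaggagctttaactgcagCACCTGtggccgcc
Spint2, chr7:29281978-29282227, minus strand: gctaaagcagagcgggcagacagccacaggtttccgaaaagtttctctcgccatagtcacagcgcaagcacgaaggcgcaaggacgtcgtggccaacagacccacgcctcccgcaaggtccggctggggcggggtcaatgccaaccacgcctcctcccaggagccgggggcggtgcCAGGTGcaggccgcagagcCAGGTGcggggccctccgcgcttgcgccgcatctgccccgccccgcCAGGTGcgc
Ap1m2, chr9:21312334-21312583, minus strand: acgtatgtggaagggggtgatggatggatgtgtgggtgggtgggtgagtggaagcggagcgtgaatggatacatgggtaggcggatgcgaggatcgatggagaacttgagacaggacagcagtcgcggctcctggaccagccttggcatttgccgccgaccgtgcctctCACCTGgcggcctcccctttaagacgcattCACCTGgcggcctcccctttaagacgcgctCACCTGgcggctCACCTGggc
Epcam, a surface adhesion protein gene of epithelia, had 30 reads in the SKP library and 2 in the fibroblast library. Ap1m2, an adaptor subunit gene of epithelial sorting, had 5 reads in the SKP library and 1 in the fibroblast library. Spint2, a protease inhibitor gene, had 34 reads and 1.21 RPKM in the SKP library against 112 reads and 4.12 RPKM in the fibroblast library. Twist1, Twist2 and Zeb2 had sequences without a match. Snai2, Snai3, Zeb1 and Tcf4 had no sequence to search, and neither had Cdh1.

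Calls in both directions were few among epithelial genes with and without a match, and no difference between these groups was tested. Of the 16 with a match 6 were expressed, with 2 higher and 1 lower in SKPs and 3 under 2-fold. Of the 11 without a match 5 were expressed, with 2 higher and 0 lower in SKPs and 3 under 2-fold. Over all expressed genes 12.1% were higher and 6.41% were lower. With so few expressed genes these counts are no result about either group. Higher genes such as Cldn4 and Dsp passed the filter only through the SKP library, so the filter favoured a difference for them. The median level of genes with a match was 0.483 RPKM in the SKP library and 0.128 RPKM in the fibroblast library, and that of genes without one was 0.789 and 0.232 RPKM.

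On the mesenchymal side 29 of 30 genes were expressed, of which 5 were higher and 9 lower in SKPs and 15 stayed under 2-fold. The shares over all expressed genes were 12.1% higher and 6.41% lower. The median log2 ratio of the list was -0.35. Vim, the intermediate filament of mesenchymal cells, had 1573 RPKM in the SKP library and 2162 RPKM in the fibroblast library, and Sparc, a matricellular protein gene, had 2201 and 2808 RPKM. Cdh2, the N-cadherin gene that replaces Cdh1 in mesenchymal transitions, had 796 reads and 9.04 RPKM in the SKP library against 2320 reads and 27.1 RPKM in the fibroblast library, 3.00-fold higher in fibroblasts (2.77 to 3.26). The members furthest apart were the proteases Mmp9 and Mmp3, higher in the SKP library, and the contractile genes Acta2 and Tagln, higher in fibroblasts.

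Homeobox and other partner factors of dermal mesenchyme included some that were close in the cultures and some that were far apart. Prrx1, an inducer of mesenchymal fate, had 104 RPKM in the SKP library and 142 RPKM in the fibroblast library, and Prrx2 had 91.9 and 69.4 RPKM. Of 14 expressed genes 4 were higher in the SKP library (Meox1, Msx1, Alx4 and Meox2). Another 2 were lower (the forkhead genes Foxf1 and Foxc2) and 8 were neither. Over all expressed genes 12.1% were higher and 6.41% were lower. All called genes of the list but Alx4 passed the filter only through the library where they were high. That was the SKP library for 3 and the fibroblast library for 2, so the filter favoured a difference. With a filter at RPKM 5 the counts were 2 higher and 0 lower. Meox1 had 1295 reads in the SKP library and 8 in the fibroblast library, and Alx4 stood at 32.9 RPKM against 2.99 RPKM. Among 11 expressed genes on which Twist proteins are known to act in skin, bone or other tissues, 1 was higher and 2 were lower. The other 8 were neither, where 12.1% of all expressed genes were higher and 6.41% lower. With 11 genes these counts are no result about the list. The higher gene was Cebpa (24.0 RPKM in the SKP library against 7.93 RPKM in the fibroblast library). The lower genes were Fgfr2 and Il6, of which Il6 passed the filter through the fibroblast library alone. Fgfr1, a receptor gene of bone and dermis, had 152 RPKM in the SKP library and 84.5 RPKM in the fibroblast library (1.79-fold, 1.75 to 1.84).

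Both cultures carried the markers of dermal fibroblasts, with all 10 listed genes at 1 RPKM or more in each library and sums of 11259 RPKM in the SKP library and 11526 RPKM in the fibroblast library. Within these sums 4 markers were higher and 2 were lower in the SKP library, where 12.1% of all expressed genes were higher and 6.41% lower. The proteoglycan gene Lum stood at 895 RPKM in the SKP library against 17.1 RPKM in the fibroblast library. In the same order, Dcn stood at 2007 RPKM against 291 RPKM, and Thy1 at 313 RPKM against 994 RPKM. The collagen genes went both ways, with Col1a1 at 2161 RPKM against 4474 RPKM and Col3a1 at 1638 RPKM against 454 RPKM. Cells of other types can also use Zeb2 and Tcf4, and several such markers moved with the libraries. Leukocyte and mast cell markers, of which 12 of 16 reached 1 RPKM in the SKP library and 2 in the fibroblast library, summed to 115 RPKM in the SKP library and 5.42 RPKM in the fibroblast library, with Ptprc, the pan-leukocyte marker, at 12 reads in the SKP library and 2 in the fibroblast library. Schwann cell and glial markers, of which 2 of 11 reached 1 RPKM in the SKP library and 8 in the fibroblast library, summed to 10.1 RPKM in the SKP library and 20.8 RPKM in the fibroblast library. Of 9 endothelial markers 2 reached 1 RPKM in the SKP library and 1 in the fibroblast library. Melanocyte markers summed to 19.7 RPKM in the SKP library and 4.87 RPKM in the fibroblast library, most of it from Mitf. Adipocyte markers summed to 365 RPKM in the SKP library and 30.6 RPKM in the fibroblast library, and skeletal muscle markers to 183 RPKM and 115 RPKM in the same order. Their part in the levels of Zeb1, Zeb2 and Tcf4 was not tested.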

How the data were processed

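RNA of 1 SKP and 1 fibroblast culture was measured, and libraries were assigned to cell types by their labels. The deposited count of reads per gene, the RPKM and the coverage in percent of gene length are the authors' values, per the file headers. The authors' deposited comparison table holds log2 ratios with p-values, and the test behind them is not given. Per the submitters' processing notes the reads were placed on mm9. Aligner, gene models and strandedness were not found in these sources. The header of the count column labels the counts as unique reads. Even so, the deposited counts exceed the single-match totals by 4370357 reads (SKP) and 3924587 reads (fibroblast). How unique was defined is not given, so reads with several matches may be included.

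Ratios of SKP over fibroblast and 95% exact (Clopper-Pearson) intervals were computed from the counts and totals, and the code was tested on simulated data (Python 3.11.15, scipy 1.17.1, pandas 2.3.3, matplotlib 3.10.9, numpy 2.4.6). Intervals of shares rest on the reads within a family. With a single library on each side no test was made and no p-value was computed.

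The genes named were the 8 members and, from other lists, at most the 4 furthest apart among those called and the 2 most abundant, plus all E protein and Id genes and those Scratch and Twist relatives that had reads. Outside that rule, and after their values were seen, Ap1m2, Cdh1, Cdh2, Cldn4, Epcam, Foxc2, Gsk3b, Kdm1a, Krt1, Meox2, Ptprc, Smad6 and Spint2 were named, as were Krt15 and the Scratch and Twist relatives without reads. Members and lists were chosen with earlier results of these data known. Among 260 listed symbols, 9 were without reads in both libraries. Alternatives were other scalings, log2(RPKM + 1), a filter at RPKM 5 and no filter. Sequences were matched by gene ID or symbol to RefSeq (GRCm38.p6) and GENCODE M21 tables, a newer build than that of the counts, and no coordinates were converted.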

Additional observations from a re-analysis of the deposited data

How the results depend on the processing

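The counts of regulators called at 2-fold and at 1.5-fold did not change under any of the 6 alternatives, and each of the 7 log2 ratios kept its sign, with Tcf4 between 1.07 and 1.12 and Twist1, the smallest, between -0.14 and -0.11. The filter at RPKM 5 and the setting without a filter leave each of these ratios as it is, and all 7 genes pass both. Those settings therefore could not change the results for the regulators. Other scalings shifted all log2 ratios by at most 0.03, less in size than the -0.14 of Twist1, so they could not change a sign. Over all expressed genes, 828 were higher and 479 lower in SKPs with a filter at RPKM 5, 2197 were higher with no filter, and 508 were lower on the log2(RPKM + 1) scale. The epithelial list had 0 higher and 2 lower genes with a filter at RPKM 5 and 13 higher genes with no filter. As shares of reads instead of RPKM, Snai1 made up 75.7% in SKPs and 53.9% in fibroblasts, Twist2 63.5% and 66.9%, Zeb1 42.8% and 33.4%, and Tcf4 54.9% and 45.7%, so by reads Zeb1 was below Zeb2 in both libraries. These shares differ because they are not divided by gene length; the cause of the other changes lies in which genes are tested or in the added pseudocount. No paired analysis was possible because each group has 1 library. For the same reason no replicate could be left out. Depth limits Snai3, at 1 read in each library, and the epithelial genes with few reads.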
